A study of Mus musculus with 8 samples.

Results

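The CpG-sparse sites with high methylation are single CpGs of the hepatocyte genome that have few other CpGs around them and are methylated in most reads. They were selected on measured values. A CpG on chromosomes 1 to 19 was kept if it had 5 or more reads in every mouse, 4 or fewer other CpGs with a read within 100 bases (its density), and a mean methylation above 80% over the 8 mice, each mouse with the same weight. By this rule 216200 of 874644 tested CpGs (24.7%) were members, and these were 68.2% of the 317171 CpG-sparse sites. The mean over all mice does not use age, so the difference between the ages was tested, while the level of the members and their number are given as a description.

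The data come from hepatocytes isolated by liver perfusion from female C57Bl6/J mice on control diet, 4 of them mid-aged (40 weeks) and 4 young (10 weeks), with 1 library of reduced representation bisulfite sequencing (RRBS) per mouse. In RRBS the enzyme *Msp*I cuts DNA at CCGG, the fragments are treated with bisulfite, which converts unmethylated cytosines, their ends are sequenced, and each read over a CpG is then scored as methylated or not. CpGs close to such sites make up most of the data. The libraries held 46321447 to 118395064 reads over CpGs, with every mid-aged library above every young one, so depth and age cannot be told apart at the level of the groups. At the members themselves the order was different, with a median of 24, 46, 50 and 47 reads in mid-aged mice 1 to 4 and of 37, 29, 36 and 53 reads in young mice 1 to 4. No pair of libraries had identical counts at more than 0.961% of the CpGs. Of the 35 marker genes of liver cell types, 17 had a tested CpG in the promoter. Of 12 hepatocyte genes 4 had one, among them *Fgb*, *Apob* and *Serpina1a* with a mean promoter methylation of 16.8%, 18.8% and 61.7%, and *Alb*, *Apoa1* and *Ttr* had none. Of the genes of other cells, *Adgre1* of macrophages had 87.2%, *Pecam1* and *Kdr* of endothelial cells had 91.9% and 2.66%, and the means of 5 stellate cell and 5 cholangiocyte genes were 22.2% and 19.5%. Between the ages these marker means gave p = 0.229 to 0.629 (two-sided exact permutation test). The share of other cells could not be measured from these. In DNA from mixed cells a change in methylation and a change in cell shares cannot be told apart.

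In mammals most CpGs are methylated by the DNA methyltransferases, which copy the mark to the new strand at replication, and a methylated cytosine can deaminate to thymine, by which methylated DNA has lost CpGs in evolution. CpG-poor DNA in gene bodies, between genes and in repeats is mostly methylated, while CpG islands at promoters are mostly free of the mark. Enhancers and other sites bound by transcription factors are known as places where CpG-poor DNA has lower methylation, and loss of methylation with age in many tissues has been described mainly outside of CpG islands.

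The windows in which density was counted, the CpG with 100 bases on either side, are shown for 3 members to give an impression of such DNA. They were read from the plus strand of GRCm38 (mm10), 5′ to 3′, with every CG in capitals. The member in intron 1 of *Casp8* (initiator caspase of cell death) was read as 100% methylated in every mouse, that in intron 6 of *Ebf3* (a transcription factor of the early B cell factor family) had the largest called loss with age, and that near *Ptpn20* (a protein tyrosine phosphatase) was one of the gains.
*Casp8*, chr1:58811463-58811664: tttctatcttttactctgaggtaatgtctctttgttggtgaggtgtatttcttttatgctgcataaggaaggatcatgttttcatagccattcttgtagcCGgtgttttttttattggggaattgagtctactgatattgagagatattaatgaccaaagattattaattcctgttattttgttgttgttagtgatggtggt
*Ebf3*, chr7:137277573-137277774: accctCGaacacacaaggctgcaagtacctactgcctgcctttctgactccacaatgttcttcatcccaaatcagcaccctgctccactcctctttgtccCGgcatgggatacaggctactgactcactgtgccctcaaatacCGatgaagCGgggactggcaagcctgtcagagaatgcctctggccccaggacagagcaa
near *Ptpn20*, chr14:33680549-33680750: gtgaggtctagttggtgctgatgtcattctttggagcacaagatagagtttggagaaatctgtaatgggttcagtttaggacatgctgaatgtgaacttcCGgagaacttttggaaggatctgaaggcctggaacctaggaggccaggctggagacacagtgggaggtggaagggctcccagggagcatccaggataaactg
The windows of *Casp8* and *Ptpn20* hold a single CG, which lies inside the only CCGG, and that of *Ebf3* holds 4. TpG and CpA occur 28, 36 and 31 times in these windows of 202 bases.

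Members named for the size of their called age difference are shown with 20 bases on either side and the CpG of the member in capitals, so that the base before and behind it can be compared. The losses came first, of which those at *Tars* and *Arhgap26* are not shown.
*Ebf3*, chr7:137277653-137277694: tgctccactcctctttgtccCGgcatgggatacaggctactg
*Efhd2*, chr4:141861922-141861963: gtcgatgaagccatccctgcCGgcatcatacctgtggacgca
near *Clec4a1*, chr6:122936623-122936664: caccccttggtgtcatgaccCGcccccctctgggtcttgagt
*Htra3*, chr5:35672336-35672377: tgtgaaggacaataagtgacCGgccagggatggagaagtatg
*Trap1*, chr16:4040366-4040407: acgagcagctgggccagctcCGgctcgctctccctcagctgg
*Daam2*, chr17:49458773-49458814: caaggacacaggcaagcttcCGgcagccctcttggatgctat
near *AC162612.1*, chr19:21052289-21052330: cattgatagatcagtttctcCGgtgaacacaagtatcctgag
*Cib4*, chr5:30537854-30537895: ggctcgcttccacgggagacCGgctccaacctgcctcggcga
The gains followed.
near *Nsun3*, chr16:62529476-62529517: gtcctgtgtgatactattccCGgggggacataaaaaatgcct
near *Gm20484*, chr5:101577985-101578026: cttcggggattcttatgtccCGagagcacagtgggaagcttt
*Rnf144a*, chr12:26334901-26334942: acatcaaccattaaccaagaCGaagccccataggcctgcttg
*Sdccag8*, chr1:176997719-176997760: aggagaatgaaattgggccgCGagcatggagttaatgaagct
*AC129217.1*, chr19:8836800-8836841: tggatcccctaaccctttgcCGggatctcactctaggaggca
*Jakmip1*, chr5:37039277-37039318: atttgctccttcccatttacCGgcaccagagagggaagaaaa
Runs of called members, from the first to the last with 10 bases on either side, are given with the CpGs of the members in capitals.
*Pomgnt2*, chr9:121984546-121984620: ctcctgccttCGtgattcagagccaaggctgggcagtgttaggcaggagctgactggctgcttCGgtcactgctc
near *9430078K24Rik*, chr12:80002833-80002874: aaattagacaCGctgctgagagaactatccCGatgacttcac
*Gm36028*, chr16:37853637-37853754: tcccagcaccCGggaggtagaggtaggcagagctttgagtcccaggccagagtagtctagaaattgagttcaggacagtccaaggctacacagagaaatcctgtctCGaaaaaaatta
*Rogdi*, chr16:5009681-5009706: ggggctcagcCGggCGtggtggcaca

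Among the members methylation was close to complete. The median of the site means was 93.9%, and 90076 members (41.7%) lay between 95 and 100%, against 66125 (30.6%) between 90 and 95%, 37089 (17.2%) between 85 and 90% and 22910 (10.6%) between 80 and 85%. The limit of 80% did not fall into a gap, since 3817 members had 80 to 81% and 3494 CpG-sparse sites had 79 to 80%. The member nearest above the limit (chromosome 14 at 105899386, near *Spry2*, an inhibitor of receptor tyrosine kinase signaling) averaged 79.2% ± 5.17 in the mid-aged and 80.8% ± 3.09 in the young group (SD, n = 4 each). The nonmember nearest to the limit, with a mean of exactly 80% (chromosome 19 at 56728185, in the annotated span of *Adrb1*, the beta-1 adrenergic receptor) averaged 81.7% ± 17.1 and 78.3% ± 18.2 (SD, n = 4 each) from 5 to 18 reads per mouse. Chromosomes differed little, with means of the members from 92.4% on chromosome 4 to 93.0% on chromosome 19, and members made up 64.9 to 72.2% of the CpG-sparse sites of a chromosome.

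The fewer CpGs surrounded a site, the more often it was highly methylated. Of sites with density 0, 1, 2, 3 and 4, the share above 80% was 74.9%, 70.8%, 68.8%, 66.6% and 63.5%. The members had 24669, 44604, 53113, 50882 and 42932 CpGs at these densities. Density counts only CpGs with a read, and the genome holds more, since 48.1% of the members had a further CpG within 100 bases that was not read in any file and 17.8% had 5 or more CpGs in the reference.

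Most of the members were in introns (46.3%) and between genes (37.9%), with 8.27% in coding exons, 4.23% in promoters (from 1500 bases before to 500 bases after a start site), 2.57% in untranslated exons and 0.725% in exons of non-coding genes. Of all tested CpGs, 39.3% were in promoters and 26.3% in introns. All CpG-sparse sites together were closer to the members, with 44.7% in introns, 36.6% between genes and 8.50% in promoters. The median distance to the nearest start site was 18370 bases for the members and 1689.5 bases for CpG-sparse sites below 20%. In promoters 33.9% of CpG-sparse sites were above 80%, in coding exons 80.9%. Repeat-masked sequence held 16.8% of the members and 8.96% of all tested CpGs, and 79.3% of the CpG-sparse sites in it were members. It held 14.4% of all CpG-sparse sites and 15.3% of the sites of density 5 to 9 above 80%.

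**Figure D1:**
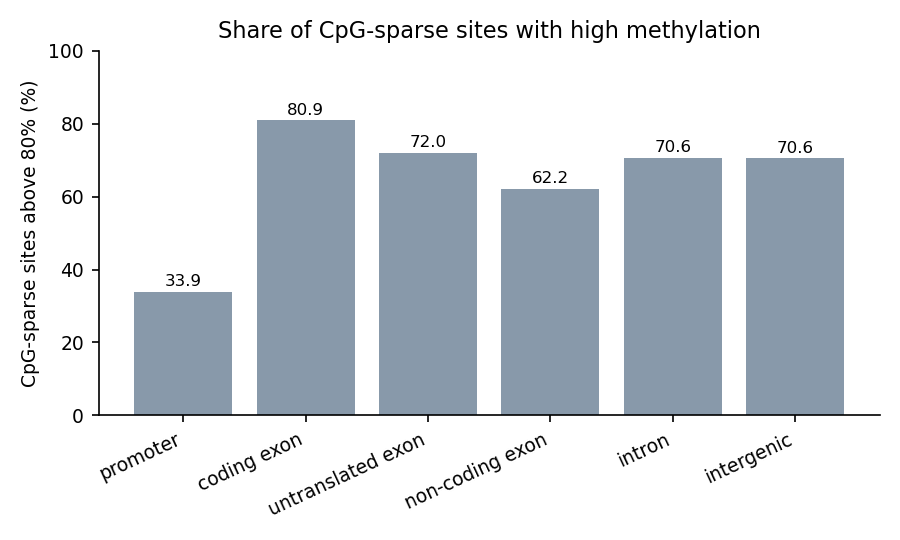
The bars give the percentage of CpG-sparse sites (density 0 to 4) whose mean methylation over 8 mice was above 80%, by position in the GENCODE annotation. Promoters stand lowest at 33.9% and coding exons highest at 80.9%, with introns and intergenic DNA both at 70.6%.

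The sequence around the members had 50.1% G and C within 100 bases on either side, compared with 59.3% for all tested CpGs and 62.1% for dense sites (density 10 or more) that were also above 80%. Other CpG-sparse sites were similar to the members, with 51.3% at a methylation of 20 to 80% and 52.1% below 20%. TpG and CpA together occurred 30.9 times in the window of the members, 30.3 times around sites of density 5 to 9 above 80%, 28.7 times around the dense sites, 29.3 times around CpG-sparse sites below 20% and 30.8 times around those at 20 to 80%. These windows held 4.11, 8.17, 14.4, 4.93 and 4.03 CpGs of the reference, a number that the density rule bears on. Of the members 50.4% were inside a CCGG, the cut site itself, against 27.2% of all tested CpGs, 43.0% of CpG-sparse sites below 20% and 47.7% of those at 20 to 80%. On either strand the base before the CpG was C in 62.4%, G in 13.4%, A in 12.7% and T in 11.5% of members. In CpG-sparse sites at 20 to 80% A was found in 16.8% and G in 9.35%.

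Short motifs that hold the CpG, searched on both strands, differed in how often they were highly methylated. The E-box CACGTG, bound by basic helix-loop-helix factors such as the circadian CLOCK and BMAL1, was found at 0.402% of the members and 0.505% of all tested CpGs, and 46.9% of the 1853 CpG-sparse E-boxes were members. The site TGACGTCA of the cyclic AMP response factor CREB was found at 0.0231% of the members and 0.0485% of all tested CpGs, and 46.7% of 107 sparse sites were members. For the ETS motif ACCGGAAG, which contains CCGG, the figures were 0.938% and 0.387%, and 78.7% of 2577 sparse sites were members. The motif TGCCGC of the imprinting factor ZFP57 was found at 1219 members and 8745 of all tested CpGs, and 71.9% of 1695 sparse sites were members. The palindrome TTGCGCAA of C/EBP factors gave 11 members of 23 sparse sites, and the motif of NRF1, an activator of mitochondrial genes, gave 14 of 15. None of these motifs contains another, and a match is a description of the letters only.

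High methylation extended to the CpGs around the members. Tested CpGs 1 to 9 bases from a member had a mean methylation of 92.7%, those 50 to 99 bases away 88.1%, those 200 to 499 bases away 84.9% and those 1000 to 1999 bases away 54.8%. Only 0.0180% of the CpGs within 9 bases of a member were below 20%, compared with 36.9% at 1000 to 1999 bases. Around CpG-sparse sites at 20 to 80% the mean was 62.2% at 1 to 9 bases and 28.9% at 500 to 999 bases. CpGs within a read length share reads, and CpGs within 100 bases of a member are few by the rule. The means cover tested CpGs only, of which 39.3% were in promoters, and not all CpGs of the DNA around a member.

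**Figure D2:**
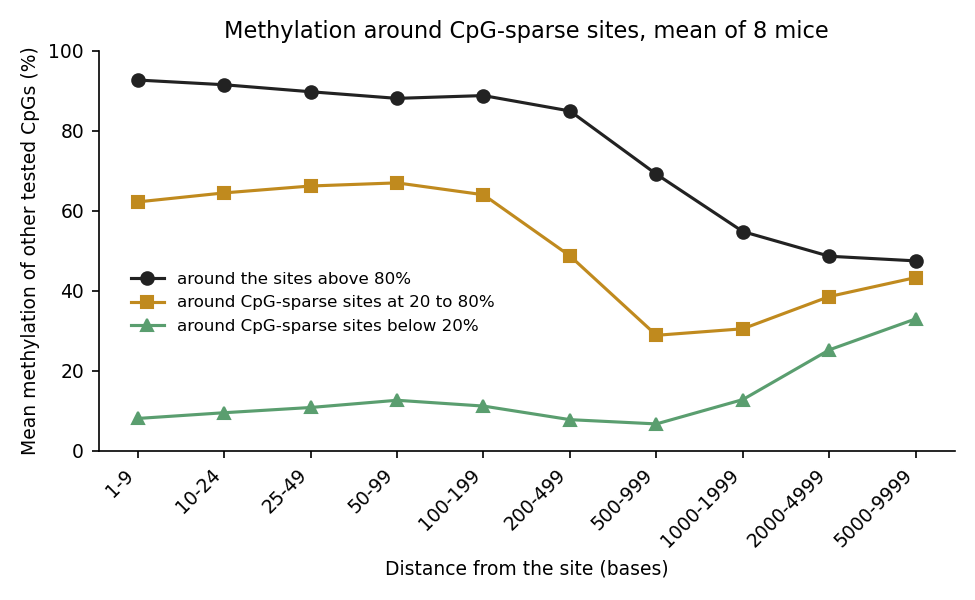
The x axis gives distance classes in bases and the y axis the mean methylation in percent over 8 mice of all tested CpGs in that class, around the sites above 80% (circles), CpG-sparse sites at 20 to 80% (squares) and below 20% (triangles). Around the sites above 80% it stays above 84% up to 499 bases and then drops to 47.5% at 5000 to 9999 bases.

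Gene lists of liver function and of other cell types were compared by how many of their CpG-sparse promoter sites were members. Over all annotated promoters these were 9139 of 26956 (33.9%). For secreted and identity genes of hepatocytes they were 0 of 34, for the growth hormone and IGF axis 0 of 28, for alcohol and xenobiotic metabolism 0 of 12, for the circadian clock 1 of 33, for cholesterol synthesis and uptake 1 of 24 and for fatty acid oxidation and ketogenesis 1 of 25. The last was in the promoter of *Fgf21*, a fasting hormone of the liver. The genes named from these lists were chosen after their values were seen. Bile acid genes had 3 of 12, all in *Hsd3b7*, an enzyme of bile acid synthesis. In fatty acid and triglyceride synthesis they were 12 of 43, from *Agpat2* (5 members), *Lpin1* (5) and *Acacb* (2), which encode an acyltransferase, a phosphatidate phosphatase and acetyl-CoA carboxylase 2.

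For lists of other cells the share was 8 of 10 in Kupffer cells and leukocytes (among them *Adgre1* with 3 and *Vav1* with 1), 7 of 19 in sinusoidal endothelial cells (*Pecam1* 5, *Tie1* 2), 3 of 20 in hepatic stellate cells, 5 of 29 in cholangiocytes and 6 of 25 in extracellular matrix and fibrosis. In the latter list all 4 CpG-sparse promoter sites of *Tgfbr1*, a receptor of TGF-beta, were members with a mean of 99.5%, while all 23 tested CpGs of its promoter had a mean of 18.1%. Keratin, lens and muscle genes of other tissues had 19 of 37, among them *Cryab*, *Mylpf* and *Ckm*. Of 273 list genes 272 matched the annotation, and their gene bodies and promoters held 1842 members over the 14 lists. None of these members was called different between the ages by the quasi-binomial model or by limma, and 180 (9.77%) and 171 (9.28%) had an unadjusted p below 0.05, beside 8.92% and 7.23% of all members. The median age difference of a list was between -1.48 and 2.32 percentage points and was below 0 in 8 lists, beside 0.19 over all members and 0.21 over all 897285 CpGs tested on chromosomes 1 to 19, X and Y.

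Averaged over all members, methylation in mid-aged and young mice could not be told apart by the test. The mean was 93.1%, 92.9%, 92.8% and 92.8% in mid-aged mice 1 to 4 and 92.5%, 92.9%, 92.5% and 92.2% in young mice 1 to 4. The groups overlapped in young mouse 2, which was above mid-aged mice 3 and 4. The difference was 0.414 percentage points (92.9% ± 0.130 against 92.5% ± 0.286, SD, n = 4 each) and did not pass the two-sided exact permutation test (p = 0.0857), for which 0.0286 is the smallest p possible. With at least 10 reads in every mouse it was 0.423 and with pooled reads 0.372, and both reached p = 0.0286 in the exact test. Without young mouse 2 it was 0.541 (p = 0.0286, exact permutation test). For members above 90% it was 0.185 (p = 0.40, exact permutation test). The median over CpGs went the other way, by -0.565 (p = 0.40, exact permutation test), and the share of members read as exactly 100% was 20.02 to 35.9% in mid-aged and 18.2 to 43.4% in young mice.

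The difference between the ages was compared with that of highly methylated CpGs in denser DNA. It was 0.174 points at density 5 to 9 and 0.121 points at density 10 or more, and thus larger at the members by 0.240 and 0.293 points (adjusted p = 0.0429 for both by the exact permutation test, 3 comparisons). In all mid-aged mice the distance between members and denser sites was smaller than in all young mice. Members minus sites of density 5 to 9 gave a mean of -0.716 points in mid-aged and -0.957 in young mice. Members minus sites of density 10 or more gave -1.11 and -1.40 points. The denser sites thus had a higher level, and the age difference of the members varied with level, as given below. The parts were not matched for level, so whether the excess goes with density or with level was not tested. CpG-sparse sites at 20 to 80% had a difference of 0.268 points, from which the members did not differ detectably (difference 0.145, adjusted p = 0.486 by the exact permutation test). With pooled reads the adjusted p rose to 0.0857 and 0.143, without CCGG to 0.0857 and 0.129 (all from the exact test), with differences of 0.207 to 0.333 points. Without any 1 of the mid-aged mice 1 to 4 the adjusted p was 0.0857 for both in the exact test, with 0.225 to 0.251 and 0.232 to 0.321 points, and without any 1 of the young mice it stayed at 0.0429.

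**Figure D3:**
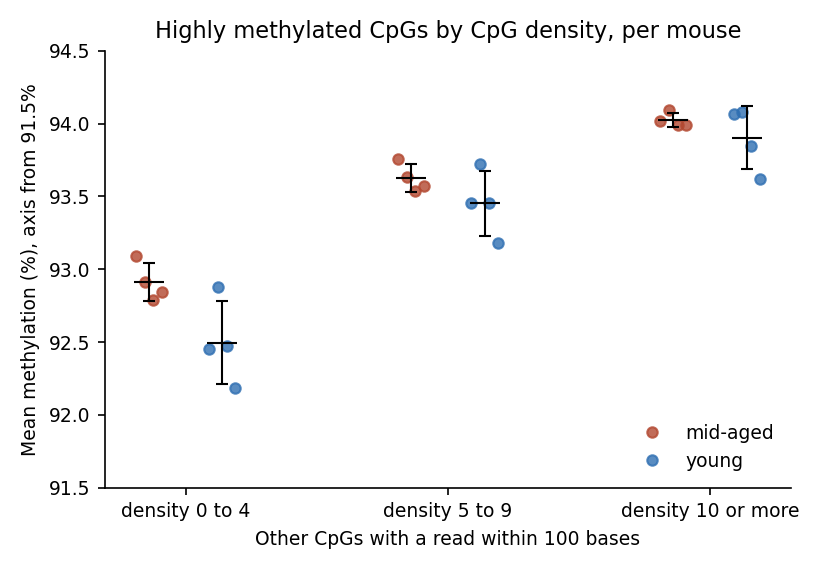
Points are the mean methylation in percent of all CpGs above 80% in each mouse, by the number of other CpGs with a read within 100 bases, and bars give the mean and SD of 4 mice. The y axis does not start at 0. The ages lie farthest apart at density 0 to 4, by 0.414 points, in classes that were not matched for level.

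The size of the difference followed the level. For members of 80 to 85% it was 1.116 points (83.3% against 82.1%), for those of 85 to 90% 0.946, for those of 90 to 95% 0.559 and for those of 95 to 100% -0.0905. In the first 3 classes all mid-aged mice were above all young mice (p = 0.0286, the smallest in an exact permutation test). After adjustment over the 19 strata the lowest p was 0.109. By density, in classes not matched for level, the difference fell from 0.606 at density 0 to 0.313 at density 4. By location it was 0.253 points in coding exons, 0.311 in promoters, 0.393 in introns and 0.493 in intergenic DNA, and it was 0.471 in repeat-masked sequence. It was above 0 on all 19 chromosomes, from 0.328 on chromosome 11 to 0.488 on chromosome 7. The chromosomes were read in the same 8 mice and are not replicates of each other.

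Single members were compared by a quasi-binomial model with a call at an adjusted p below 0.05 and a difference of at least 5 points. Of the members 36 were called lower and 11 higher in mid-aged mice, 0.0167% and 0.00509% of them. The background over all 897285 tested CpGs was 0.102% lower and 0.0615% higher, and CpG-sparse sites at 20 to 80% had 397 lower and 61 higher calls (0.574% and 0.0883%). Over all members, called or not, the mean was higher in mid-aged mice at 112398 and lower at 101891, and a difference of 20 points or more was found at 312 with higher and 205 with lower values, up to 34.9 points. A mean above 80% limits the difference that a member can have to 40 points, so that these shares are not on the same footing. The groups did not overlap at 3322 members with lower and 2828 with higher values in mid-aged mice (1.54% and 1.31%), compared with 1.24% and 2.33% over all tested CpGs.

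The calls depended on single mice and on the test. Without 1 of mid-aged mice 1 to 4 only 19, 12, 14 or 14 members were called lower and 2, 0, 1 or 1 higher, and without young mouse 1, 2, 3 or 4 there were 66, 37, 24 or 57 lower and 56, 22, 16 or 35 higher. limma on M values called none of the members, with 15622 at an unadjusted p below 0.05 (7.23%), and the quasi-binomial model had 19281 (8.92%). The study used limma within RnBeads for its own age comparison, which was not rerun here. Over all 897285 tested CpGs limma called only 24 lower and 16 higher. Unadjusted p below 0.05 was found there at 12.9% by limma and at 9.09% by the quasi-binomial model. Called members were read more deeply, with a median of 44 (lower) and 33 (higher) reads in the mouse with fewest, against 16 over all members.

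Losses had a median size of 18.4 points (5.30 to 30.2), and gains of 12.8 points (6.13 to 25.1). Of the 36 losses 27 were inside a gene, 21 in introns by location, 3 in coding exons, 3 in untranslated exons and 2 in promoters. In these promoters, named after their values were seen, the loss is that of 1 member each. It was -14.7 points (80.6% against 95.3%) at *Nfkbia*, the inhibitor of NF-kappa-B, 790 bases from the start site. The 24 other tested CpGs within 1000 bases averaged 21.9%, with a median difference of -0.45 points, and 1 of them was called. At *Dimt1*, an rRNA methyltransferase, the loss was -5.30 points (87.9% against 93.2%). The 4 other tested CpGs there averaged 48.3%, with a median difference of -7.37 points and no call. The mean of the young mice was above 95% at 21 of the 36.

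The largest called loss was at the CpG of *Ebf3* (ENSMUSG00000010476.14) in intron 6 of 15, chromosome 7 at 137277673. It had 71.7%, 64.6%, 59.1% and 67.8% in mid-aged mice 1 to 4 and 100%, 100%, 90% and 94.1% in young mice 1 to 4, from 39 to 110 reads per mouse. The highest mid-aged mouse was far below the lowest young mouse. The difference was -30.2 points (65.8% ± 5.32 against 96.0% ± 4.88, SD, n = 4 each, adjusted p = 0.00212), and it was called without any single mouse but not with limma or after thinning to 20 reads. Its neighbors did not follow. The other 5 tested CpGs within 1000 bases, all at lower coordinates, differed by -4.89 to 6.48 points and none of them was called.

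At *Efhd2* (ENSMUSG00000040659.3), encoding a calcium-binding protein of the actin cytoskeleton, the member lay in coding exon 2 of 4 (chromosome 4 at 141861942). Mid-aged mice had 69.0%, 68.2%, 66.0% and 63.2%, and young mice 100%, 98.0%, 89.1% and 92.2%. The difference was -28.2 points (66.6% ± 2.60 against 94.8% ± 5.07, SD, n = 4 each, adjusted p = 0.00935), and all 4 other tested CpGs within 1000 bases were lower in mid-aged mice as well, by 15.2 to 19.0 points, without a call. The 3 of them that lie 105 to 133 bases away had 31.4 to 35.5% in young and 12.3 to 19.8% in mid-aged mice. The call at the member was lost without mid-aged mouse 2, 3 or 4 and after thinning to 20 reads.

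*Trap1* (ENSMUSG00000005981.11), a chaperone of mitochondria, had its member in coding exon 17 of 18 (chromosome 16 at 4040386). The values were 75%, 74%, 71.4% and 69.2% in mid-aged and 97.7%, 95%, 100% and 96% in young mice. The groups were far apart here, too. The difference of -24.8 points (72.4% ± 2.60 against 97.2% ± 2.19, SD, n = 4 each, adjusted p = 0.00519) was called without any single mouse and after thinning to 20 reads, and the 3 other CpGs within 1000 bases differed by -13.9 to -26.3 points.

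The member with the lowest adjusted p among the named losses in protein-coding genes was in *Tars* (ENSMUSG00000022241.6), the threonyl-tRNA synthetase, in the untranslated part of the last of 19 exons. Among the 13 CpGs that were looked up from the study, 7 were tested here and one in this exon was the only member. The study lists this CpG as a new locus that it identified by RRBS in hepatocytes. Its age difference here is therefore not independent of how it was chosen. By limma on M values this CpG was not called. There were 3 called members between 11383900 and 11383947 of chromosome 15, a stretch of 48 bases. These 3 members are CpG-sparse by reads only, with a density of 4 each, since the reference holds 7, 8 and 10 other CpGs within 100 bases. At the one named by the study, the last of them, mid-aged mice had 80.6%, 64.1%, 64.9% and 61.2% and young mice 94.4%, 96.6%, 95.8% and 92.2%, with a difference of -27.0 points (adjusted p = 0.000148) from 118 to 251 reads. Mid-aged mouse 1 was the highest of its group at all 3 CpGs. Over the 4 tested CpGs of the run the mean was 72.5% ± 8.66 in mid-aged and 93.7% ± 1.45 (SD, n = 4 each) in young mice, and without mid-aged mouse 2 or mid-aged mouse 4 the CpG at 11383900 was no longer called.

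Further runs of called losses had 2 members each. In the last intron of *Pomgnt2* (ENSMUSG00000066235.7), a glycosyltransferase that modifies dystroglycan, the CpGs at 121984556 and 121984609 of chromosome 9 had a joint mean of 86.6%, 84.8%, 80.04% and 76.0% in mid-aged and 97.6%, 98.4%, 96.5% and 97.6% in young mice. Both lost the call without mid-aged mouse 3. The CpG-sparse pair at 80002843 and 80002863 of chromosome 12, 66579 and 66599 bases from the start of *9430078K24Rik*, fell by 21.8 and 21.9 points (adjusted p = 0.0284 and 0.0464). In *Gm36028*, a gene model of the annotation with no role known here, 2 repeat-masked CpGs 96 bases apart fell by 10.1 and 17.9 points (adjusted p = 0.0323 and 0.000119). The second of these was called without any single mouse, while the first and both CpGs of chromosome 12 were lost without mid-aged mouse 1, 3 or 4 and without young mouse 3. CpGs of a run share reads and are not independent of each other.

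The other large losses were near *Clec4a1*, a C-type lectin receptor of myeloid cells (69.8% ± 10.4 against 96.8% ± 1.125), in intron 1 of *Htra3*, a secreted serine protease (67.4% ± 7.22 against 93.2% ± 3.06), in *Daam2*, a formin of Wnt signaling (68.6% ± 6.75 against 93.2% ± 3.31), near *AC162612.1* (68.0% ± 11.4 against 92.1% ± 5.39) and in *Cib4*, a calcium-binding protein (76.7% ± 10.4 against 99.5% ± 0.980), all as mid-aged against young (SD, n = 4 each) without overlap. The lack of overlap and at least 10 reads per mouse were conditions for naming them. Adjusted p-values were 0.0105, 0.0260, 0.0294, 0.0448 and 0.0222, and all 5 calls were lost without mid-aged mouse 2 and also without mid-aged mouse 4. Those at *Daam2*, *Cib4* and *AC162612.1* were lost without any 1 of the mid-aged mice. The CpG near *Clec4a1* was 14795 bases from the start site, and a CpG 25 bases away differed by -0.36 points (72.7% against 73.0%).

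Some members had several called CpGs around them. In intron 25 of *Daam2*, all 15 other tested CpGs within 1000 bases were lower in mid-aged mice and 4 of them were called, with a median of -26.3 points. In intron 6 of *Sh3pxd2a*, a scaffold protein of podosomes named after its values were seen, the member at 47338808 of chromosome 19 fell by 18.9 points (73.0% ± 4.15 against 91.8% ± 1.95, SD, n = 4 each), 8 of 9 others were lower and 4 were called. In the last intron of *Arhgap26*, a GTPase-activating protein, the member (chromosome 18 at 39363303) had 84.3%, 57.2%, 75.8% and 71.9% in mid-aged and 98.2%, 94.3%, 100% and 91.0% in young mice (adjusted p = 0.0171), and its call was lost without mid-aged mouse 2, 3 or 4. All 10 CpGs around it were lower, 9 of them called, with 17.1 to 32.3% in mid-aged mice and 30.5 to 88.1% in young mice. None of these 10 was itself a member.

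Over all 36 losses, 17 had a further CpG called lower within 1000 bases, and at 15 all other tested CpGs in this distance were lower. The 17 were in or near 12 genes, and members of a run count each other and share reads. At some of the 15 only 1 other CpG was tested. The same shares over all members are not given here. At 19 no further CpG was called in either direction, and the other CpGs around these had a median difference of -2.73 points. Of the 11 gains 3 had a further CpG called higher, and at 6 all others were higher.

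**Figure D4:**
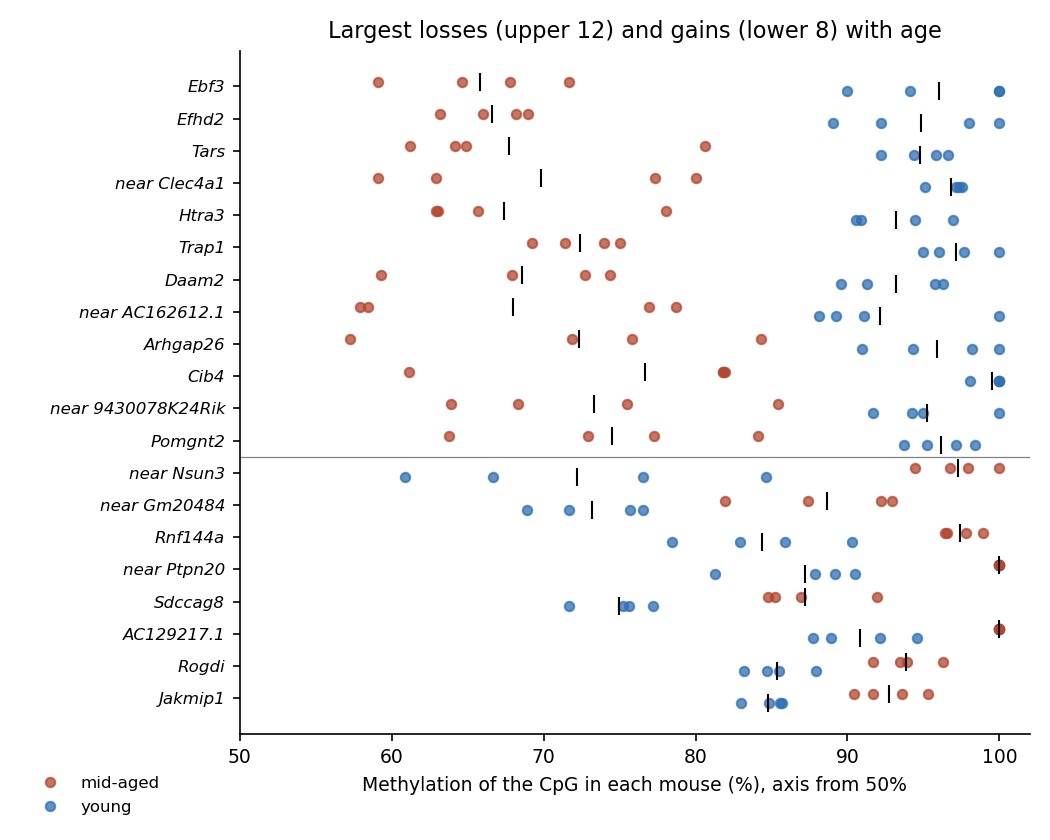
Each point is the methylation in percent of the CpG in 1 mouse, mid-aged or young, with the mean of 4 mice as a vertical bar. Only called members that had at least 10 reads per mouse and nonoverlapping ages were eligible. Of these, the 12 genes with the largest loss (above the line) and the 8 with the largest gain (below) are shown. The x axis starts at 50%. No site has overlapping groups, which follows from this choice. The mid-aged mice spread widely at some losses, as near *Clec4a1* with 59.1 to 80%, and little at others, as in *Trap1* with 69.2 to 75%.

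Only 8 gains had 10 or more reads per mouse and groups that did not overlap, so that fewer than 12 genes could be named. The largest was near *Nsun3*, a mitochondrial RNA methyltransferase, although 257281 bases from its start site (chromosome 16 at 62529496). It had 96.8%, 94.4%, 98.0% and 100% in mid-aged and 60.9%, 84.6%, 66.7% and 76.6% in young mice, from 13 to 64 reads per mouse. The difference was 25.1 points (97.3% ± 2.32 against 72.2% ± 10.5, SD, n = 4 each, adjusted p = 0.0267).

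The gain at *Sdccag8*, a centrosomal protein of cilia, in intron 16 of 17 (chromosome 1 at 176997739) was smaller but read more deeply, with 166 to 505 reads per mouse. Mid-aged mice had 85.2%, 91.9%, 84.7% and 86.9% and young mice 71.7%, 75.2%, 75.6% and 77.2% (difference 12.3, adjusted p = 0.0216). All 4 CpGs around it, at 53 bases upstream to 90 bases downstream, were higher in mid-aged mice too, by 16.7 to 19.9 points, and 2 of them were called.

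At 2 of the 8 named gains all mid-aged mice were read as 100%. Near *Ptpn20* (chromosome 14 at 33680649) young mice had 87.8%, 81.2%, 90.5% and 89.2% (difference 12.8, adjusted p = 0.0326). In the promoter of *Bscl2* (seipin, needed for lipid droplets), 647 bases from its start site and inside the gene model *AC129217.1* (chromosome 19 at 8836820), they had 92.2%, 87.7%, 94.55% and 88.9% (difference 9.17, adjusted p = 0.0247). The 13 other tested CpGs within 1000 bases of this CpG averaged 15.2%, with a median difference of 0 points and no call. With 0 unmethylated of 168 and 289 reads in mid-aged mice, up to 1.79% and 1.04% unmethylated reads are allowed (3 counts of the total, counting error only).

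Further gains were in intron 4 of *Rnf144a*, a ubiquitin ligase (97.4% ± 1.15 against 84.4% ± 4.97, adjusted p = 0.0155), near *Gm20484* (88.6% ± 5.09 against 73.2% ± 3.55, adjusted p = 0.0471), in the span of *Jakmip1*, a microtubule-binding protein (92.7% ± 2.14 against 84.8% ± 1.25, adjusted p = 0.0485), and in intron 9 of *Rogdi* (93.8% ± 1.90 against 85.3% ± 1.97, adjusted p = 0.00997), all SD with n = 4 each. The only run of gains was in *Rogdi*, at 5009691 and 5009695 of chromosome 16, in repeat-masked sequence with 33 reads in mid-aged mouse 1 and 276 to 903 in the others. All 6 other CpGs around it were higher. Each of the 8 named gains lost its call without mid-aged mouse 2, and also without mid-aged mouse 3 and after thinning to 20 reads, and the CpG in *Jakmip1* lost it without any of the 8.

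At the upper end, 1813 members (0.839%) were methylated in every read of every mouse. The 5 with most reads were in intron 1 of *Casp8* (686 reads), in the last exon of *Itsn1*, an endocytic scaffold (634 reads), near *AC163347.1* on chromosome 18 (581 reads), in intron 10 of *D6Wsu163e* (545 reads) and in coding exon 56 of 79 of *Dnah5*, a dynein heavy chain of cilia (544 reads). As 0 of the reads was unmethylated, a share of up to 0.437% is allowed at *Casp8* and up to 0.551% at *Dnah5*. At *Casp8* each mouse had 28 to 116 reads.

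The spread between mice of an age was larger than counting reads gives. In members whose least covered mouse had 5 to 9 reads, the SD between mice was 8.38 points (root mean square over sites) against 6.33 expected from binomial sampling, and with 50 or more reads it was 3.95 against 2.44. The ratio rose from 1.32 to 1.62. CpG-sparse sites at 20 to 80% had an SD of 12.4 points and dense sites above 80% of 5.64 points, beside 6.75 at the members. These SDs are not adjusted for level or reads. The dispersion, the variance relative to binomial sampling, differed less, with medians of 2.03, 1.63 and 1.68 in the same order.

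Single mice below 50% were rare, at 1677 members (0.776%). Of the members 636 were below 50% in young mouse 1 and 595 in young mouse 2, against 31 to 162 in each of the other mice. Both also had the most members at exactly 100%, 40.8% and 43.4%, compared with 18.2% in young mouse 4. Mid-aged mouse 1 had fewer reads (median 24) than both and 141 members below 50%. The cause was not tested.

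**Figure D5:**
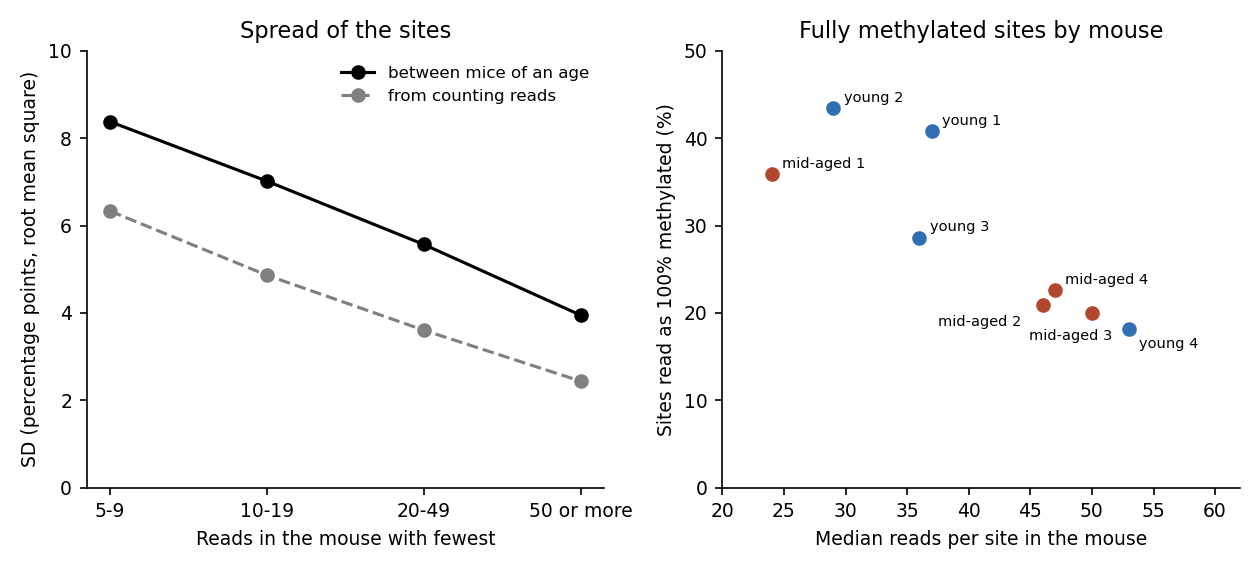
Left, the SD in percentage points between mice of an age (solid) and from binomial sampling of reads (dashed) by the reads of the least covered mouse, which falls from 8.38 to 3.95 points. Right, the percentage of members read as 100% methylated in each mouse against its median reads per member, with mid-aged mice in red and young mice in blue, where young mice 1 and 2 stand highest at 40.8% and 43.4%.

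The 6 most variable members with at least 10 reads in every mouse were those of a single mouse, young mouse 1 or 2. The CpG near *Ngfr* (chromosome 11 at 95565476) had 0% in young mouse 1 (0 of 11 reads, exact Clopper-Pearson 95% interval 0 to 28.5%) and 90.9 to 100% in the other 7. In coding exon 6 of *Selenbp2* (chromosome 3 at 94699695) young mouse 2 had 0 of 10 reads methylated (interval 0 to 30.8%) and the others 81.8 to 100%. At *Tll2*, *Bvht*, near *4930444E06Rik* and near *Mir195b* the single mouse had 10.0 to 18.2% from 10 to 14 reads. None was called, with adjusted p of 0.685 to 0.895 in the quasi-binomial model.

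Reads came from both strands in every mouse at 10.9% of the members and at 21.9% of all tested CpGs. Reads of RRBS carry no molecular identifiers here, so intervals cover counting error only and copies of a molecule cannot be told from separate molecules.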

How the data were processed

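Hepatocyte RRBS libraries of 4 mid-aged and 4 young mice were used. The deposited tables hold for each CpG strand (mm10) a methylation percent and a read count, which the authors made with the DEEP pipeline. Tools in the submitters' processing notes are Picard 1.115, SAMtools 1.3, BWA 0.6.2, Trim Galore 0.4.2 and FastQC. Which methylation caller was run is not stated there. Strands were summed. Annotation was GENCODE vM21 (basic), and sequences came from RefSeq's GRCm38.

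The age test per CpG (5 or more reads in every mouse) was a quasi-binomial logistic regression with dispersion moderated by limma 3.58.1 (R 4.3.3) and not below 1, with Benjamini-Hochberg adjustment over 897285 CpGs and a variance below 0.05 in both groups. It was tested on simulated counts. Means per mouse were compared by two-sided exact permutation tests (Python 3.11.15, numpy 2.4.6), which measure the spread between these mice. Members and lists were chosen with earlier results of these data known. Named were up to 12 genes each with the largest loss and gain among called members (10 reads, no overlap), up to 5 runs per direction, called list genes, the 6 most variable and the 5 most deeply read members at 100%, the study's CpGs and those next to the limit. Alternatives were other read minima, densities, levels and tests, reads thinned to 20, and leaving out each mouse. Values of some genes of the marker and gene lists are not reported here.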

Additional observations from a re-analysis of the deposited data

Results flagged for a closer look

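In 10 of 68 groups of 4 mice, at the members named above and their mean, a single mouse stood apart from the other 3 beyond Dixon's 95% critical value, where chance alone gives about 1 in 20 groups. At 5 of the most variable members this was young mouse 1 or 2, as follows from how they were chosen, with 0% near *Ngfr*, 0% in *Selenbp2*, 10.0% in *Bvht*, 14.3% near *4930444E06Rik* and 18.2% near *Mir195b*. Mid-aged mouse 1 had 89.6% at 11383900 and 88.7% at 11383929 in *Tars*, above the other 3 mid-aged mice, and 61.1% in *Cib4*, below them. Young mouse 2 had 95.9% at 11383900 in *Tars* and young mouse 4 had 98.0% in *Cib4*. The causes were not tested.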

How the results depend on the processing

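The mean age difference over the members was between 0.310 and 0.541 points when a mouse was left out, 0.423 with at least 10 reads, 0.372 with pooled reads, 0.185 above 90% and -0.565 for the median over CpGs. Its excess over CpG-sparse sites of 20 to 80% was -0.00653 to 0.285 without 1 mouse, below 0 without mid-aged mouse 1. The excess over density 5 to 9 was 0.223 to 0.277 and over dense sites 0.224 to 0.361 without 1 mouse. It was 0.220 and 0.333 with pooled reads, 0.207 and 0.266 without CCGG, and, chosen after seeing the data, 0.236 and 0.300 after thinning to 20 reads, none of these past the threshold. Of the strata, density 0 turned to -0.143 without CCGG, and 95 to 100% ranged from -0.265 to 0.0725 without 1 mouse, above 0 without young mouse 1 (0.00117) or 2. The causes were not tested.

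Losses and gains called among the members were 18 and 7 at density up to 2, 9 and 4 above 90%, 20 and 4 without CCGG, 17 and 9 after thinning to 20 reads, 0 and 0 with limma, 2288 and 4009 by Fisher's exact test on pooled reads, which leaves out the spread between mice, and 31 and 7 for at least 10 points. Over all tested CpGs Fisher's exact test called 11629 lower and 15339 higher, limma 24 and 16, and the model after thinning 470 and 216. Without 1 mouse losses among the members were 12 to 66 and gains 0 to 56. After thinning 10 of the 36 losses and 1 of the 11 gains remained. Without repeat-masked CpGs, chosen after seeing the data, 29 and 9 were called.

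With the replicate number as a block, 71 losses and 54 gains were called among the members, 36 and 10 of them shared, beside 1543 and 960 over all tested CpGs. The excess over denser sites of 0.240 and 0.293 had an adjusted p of 0.188, since 0.125 is the smallest p that sign flips of 4 pairs can give. The mean difference had p = 0.125 in this exact test. Mice with the same number did not deviate together over 93089 CpGs, which are not the set of members (correlations between -0.00352 and 0.00935). Mice with different numbers had correlations between -0.0124 and 0.0111. Whether the numbers are a pairing cannot be told from this, since a low correlation at these CpGs does not exclude it. The block changed the call of 1 of 27 named CpGs. Depth limits single members, of which 27.1% had 5 to 9 reads in the least covered mouse.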
